A study of Mus musculus with 9 samples.

Results

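The T cell receptor and the first enzymes beneath it were followed through 9 genes, taken by symbol: the CD3 chains Cd3e, Cd3d and Cd3g, the zeta chain Cd247, the coreceptor chains Cd8a and Cd8b1, the kinases Lck and Zap70, and the adaptor Lat. They were 9 of the 37022 genes with a named row in the deposited tables. Each gene is represented by 1 of its annotated transcripts, the one whose gene-body signal averaged highest. Nascent RNA, meaning RNA made during a short labelling pulse, had been captured from mouse CD8+ T cells in 3 groups of 3 libraries. Cells of the first group received acute stimulation, cells of the second received chronic stimulation, and cells of the third received chronic stimulation with an inhibitor of MEK, a kinase of the RAS-ERK pathway. Living cells had taken up 0.2 mM 5-ethynyl uridine for 30 minutes, and the labelled RNA was then pulled down and sequenced. The labels used here do not give the manner or length of stimulation, the name or dose of the inhibitor, or the strain, age or sex of the mice. Nothing in them says whether the 3 libraries of a group came from separate animals or cultures, so p-values measure the spread between these libraries, which may be technical.

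A T cell recognises antigen through clonotypic alpha and beta chains, which have almost no intracellular part and signal through the CD3 and zeta chains bound to them. CD8 binds the class I molecule that presents the antigen and carries the kinase LCK to the receptor. LCK phosphorylates tyrosines in the tails of the CD3 and zeta chains, ZAP-70 docks on them and phosphorylates LAT, and LAT then gathers the enzymes that open the calcium, RAS and NF-kB branches. MEK lies well downstream, in the RAS branch.

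Each library had a signal per transcript over the gene body (its span in the genome, introns included) and over the pause region near the transcription start. The deposited values were normalised, in steps that differed between libraries, and were treated here as signal. Whether they are rescaled read counts is not given in the sources used here. The depth in reads is thus unknown, and no counting interval can be given. Signal over rows that look like ribosomal RNA took 19.1% to 22.3% of the gene-body total in acute libraries, 34.2% to 40.6% in chronic and 29.0% to 36.1% in MEK-inhibited ones. Values below were therefore rescaled with a trimmed mean over genes, and "scaled signal" refers to that scale. On a scale set by library totals instead, the median of all tested genes was shifted by -0.48 (log2) for chronic minus acute, by -0.38 for MEK-inhibited minus acute and by 0.10 for MEK-inhibited minus chronic. Across genes, Pearson r of log2 signal was 0.959 to 0.984 between libraries of a group and 0.910 to 0.954 between groups, with genes not being independent replicates. Fewer cells of a type and less RNA per cell cannot be told apart in such bulk samples.

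Chronic stimulation went with lower gene-body signal over 7 of the 9 genes. Cd8a, Lat, Cd8b1, Lck, Cd3e, Cd247 and Zap70 fell, with log2 fold changes from -2.07 to -0.40, whereas Cd3d and Cd3g did not pass the test (limma on log2 of scaled signal plus 5, Benjamini-Hochberg adjusted p under 0.05). Of all 15942 genes tested, 15.9% were called lower, 18% higher and 33.9% in either direction. The median of the 9 log2 fold changes was -0.50, beside -0.02 over all genes tested. The chronic and acute libraries did not overlap for the same 7 genes, and they did not overlap for 44.2% of all genes tested. All 7 falls passed the test under each of the 4 other scalings as well, whereas Cd3d and Cd3g were called lower, at -0.53 and -0.40, only on scales set by library totals or as deposited. MEK-inhibited cells had higher signal than chronic cells over Cd8a, Cd8b1 and Cd3e, and none of the 9 was called lower. Higher calls made up 9.93% of all genes tested in that comparison, lower calls 7.65% and both together 17.6%. The median of the 9 was 0.22, against 0.04 over all genes. Groups did not overlap for 3 of the 9 genes and for 32.2% of all genes. Against acute cells, MEK-inhibited cells stayed lower over Cd8a, Lck, Zap70 and Lat, where 11.5% of all genes tested were called lower, 14.4% higher and 25.8% in either direction. The median of the 9 was -0.25, beside 0.00 over all genes, and the groups did not overlap for 5 of the 9 and for 42% of all genes. Each comparison shares a group of libraries with each of the others, so the 3 sets of values are not independent.

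**Figure D1:**
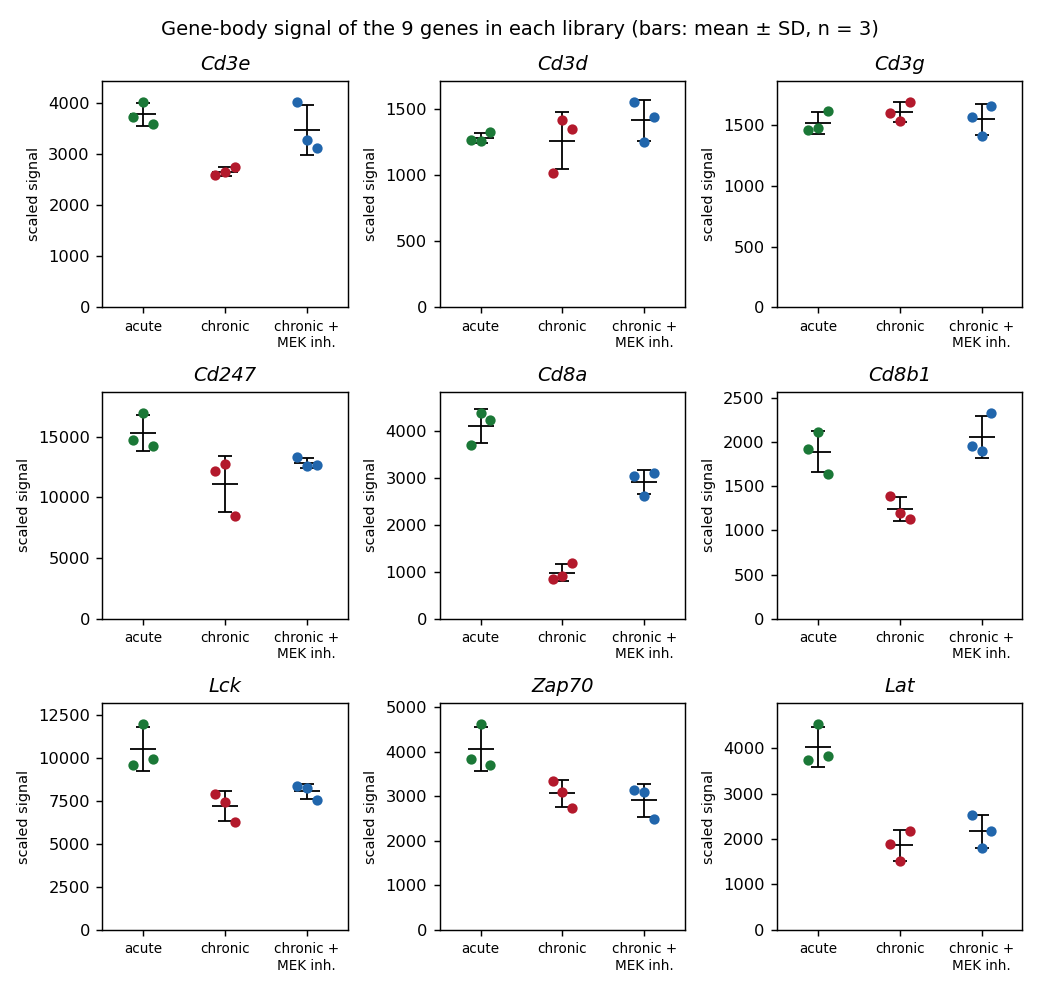
Scaled gene-body signal (vertical axes, starting at 0) of each of the 9 genes in the 9 libraries, by group; points are libraries and bars are the mean and SD (n = 3). The 3 chronic libraries lie below all acute and all MEK-inhibited libraries for Cd3e, Cd8a and Cd8b1, and the 3 groups overlap for Cd3d and Cd3g.

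**Figure D2:**
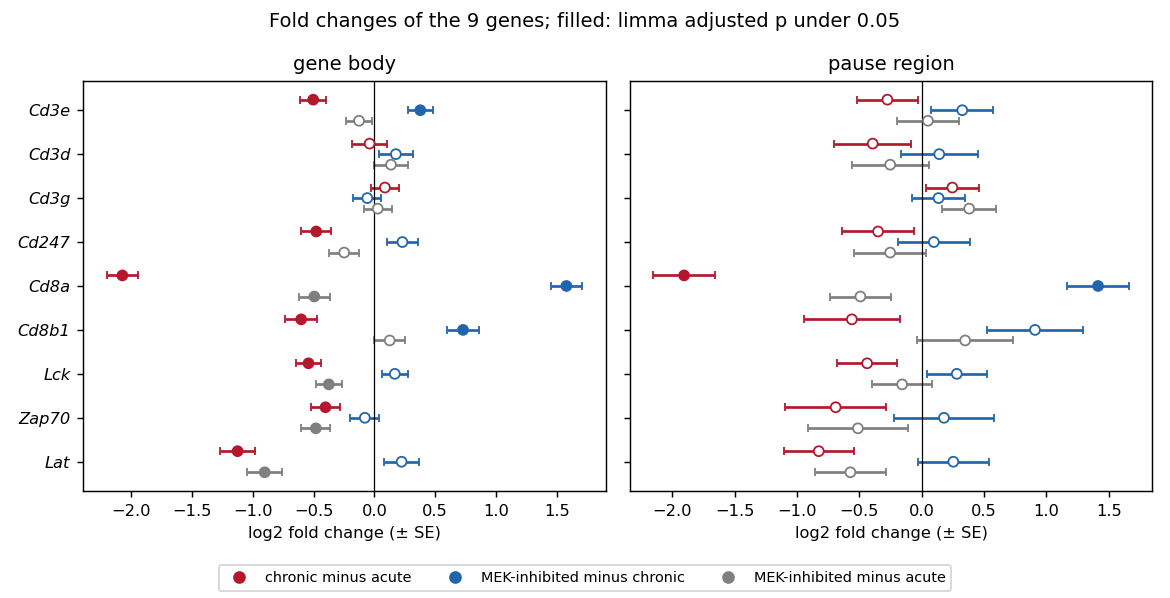
Log2 fold change (horizontal axes) with its standard error for each gene and comparison, over the gene body (left) and the pause region (right); filled points passed the limma test. Cd8a is the only one of the 9 genes with filled points in the pause region, for chronic minus acute and for MEK-inhibited minus chronic.

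Cd8a encodes the CD8 alpha chain, present in both the alpha-beta and the alpha-alpha form of the coreceptor, and it changed most among the 9. Its scaled gene-body signal was 3694, 4388 and 4236 in the acute libraries, 841, 912 and 1184 in the chronic ones and 3031, 2609 and 3099 in the MEK-inhibited ones. The 3 groups occupied separate ranges, with chronic lowest, MEK-inhibited between and acute highest. Chronic signal was 4.19 times lower than acute (-2.07 on the log2 scale, with SE 0.13 and a limma adjusted p of 5.65e-10). With the MEK inhibitor it was 2.97 times higher than in chronic cells (log2 fold change 1.58, SE 0.13, limma adjusted p 6.14e-08). MEK-inhibited minus acute was -0.49 (limma adjusted p 0.00770, and 0.0567 without the intensity trend and robust moderation). The 3 annotated Cd8a rows of at least 2 kb gave chronic minus acute values from -2.12 to -2.07. These rows cover largely the same bases, so their likeness is not a separate check.

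Cd8b1 encodes the CD8 beta chain, which pairs with alpha in the coreceptor that most circulating CD8 T cells carry. Its scaled signal was 1924, 2112 and 1643 in acute, 1390, 1203 and 1134 in chronic, and 1956, 1899 and 2335 in MEK-inhibited libraries. All chronic values lay below all others, and acute and MEK-inhibited values overlapped. The log2 fold change was -0.60 for chronic minus acute (SE 0.13, limma adjusted p 0.00132) and 0.73 for MEK-inhibited minus chronic (SE 0.13, limma adjusted p 0.000480). MEK-inhibited minus acute was 0.13 (SE 0.13, limma adjusted p 0.532).

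The pair lies on chromosome 6 in the same orientation, Cd8b1 at chr6:71322788-71337494 and Cd8a at chr6:71373427-71379169 (GRCm38, plus strand), with 35932 bases between them, and no other annotated gene overlaps either. The Cd8a promoter is shown because Cd8a was the 1 member called over its start as well as over its body. RefSeq (GRCm38.p6) places the stretch from 250 bases before to 50 after the annotated start at chr6:71373177-71373476 on the plus strand.
Cd8a: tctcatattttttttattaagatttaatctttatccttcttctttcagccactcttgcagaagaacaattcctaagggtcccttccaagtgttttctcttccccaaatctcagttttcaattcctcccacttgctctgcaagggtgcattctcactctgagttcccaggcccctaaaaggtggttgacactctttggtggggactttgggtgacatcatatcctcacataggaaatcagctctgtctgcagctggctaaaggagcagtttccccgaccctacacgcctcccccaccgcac
Short core letters of 3 families of T cell transcription factors were searched on both strands: those of ETS factors, of RUNX factors and of TCF and LEF factors. The letters were GGAAGT for the first family. For the RUNX family they were TGTGGT. For TCF and LEF factors they were CTTTGA. None occurs in the Cd8a stretch, which is why it holds no capitals. Of 32851 RefSeq promoter windows of the same length, 23.8% hold the first, 16.8% the second and 16.0% the third, so a match or its absence describes only the letters of the window. RefSeq windows were matched for 8 of the 9 genes, and none for Cd8b1.

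The ratio of the 2 coreceptor genes within a library does not depend on scaling, and it was computed after the values above had been seen. Cd8a signal per Cd8b1 signal was 1.92, 2.08 and 2.58 in acute, 0.605, 0.758 and 1.04 in chronic and 1.55, 1.37 and 1.33 in MEK-inhibited libraries. On the log2 scale the means were 1.12 ± 0.22, -0.35 ± 0.40 and 0.50 ± 0.12 (SD, n = 3), and no 2 groups overlapped. Every pair of groups reached the smallest p that an exact two-sided permutation test of 3 against 3 can give, 0.1. After Benjamini-Hochberg adjustment over 9 such ratio tests it was 0.129. With 3 libraries a group this permutation test cannot pass 0.05. In chronic cells Cd8a was thus further below its acute level than Cd8b1, with a difference in log2 ratio of -1.47. The difference of -0.62 between MEK-inhibited and acute cells combines a lower Cd8a with a Cd8b1 that was not called.

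**Figure D3:**
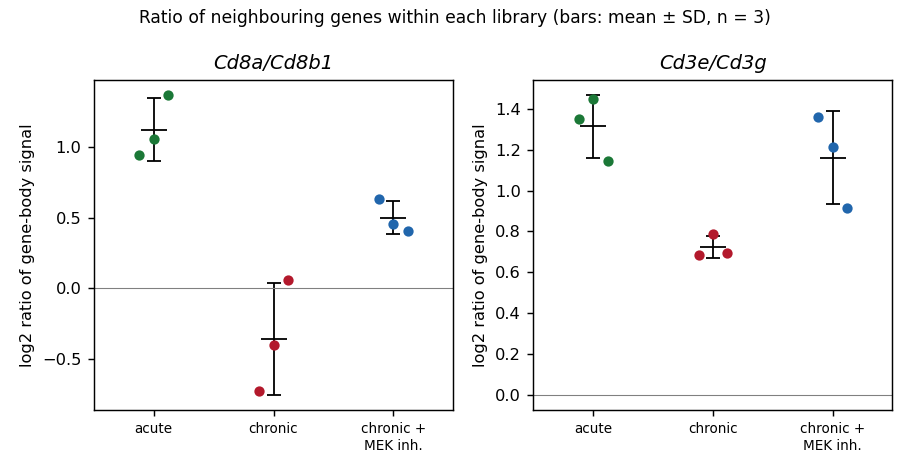
Log2 ratio of gene-body signal of Cd8a to Cd8b1 and of Cd3e to Cd3g (vertical axes) in each library, with group means and SD (n = 3). The chronic libraries lie below both other groups for both ratios, and Cd8a to Cd8b1 in MEK-inhibited libraries also lies below acute.

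Nearby genes were read by position: the 2 nearest tested genes on either side of the pair. Smyd1, a muscle methyltransferase gene, lies 0.56 kb before Cd8b1 and is transcribed away from it. Its values were -0.06, 0.15 and 0.08 for chronic minus acute, MEK-inhibited minus chronic and MEK-inhibited minus acute. Krcc1, which lies within the span of Smyd1 on the other strand, had -0.04, 0.16 and 0.12. Whether the counting used strand is not given, so signal of these 2 genes cannot be separated. Neither was called in any of the 3 comparisons, although both were called lower in chronic than acute cells on scales set by library totals (-0.55 and -0.53). Rmnd5a, a subunit of a ubiquitin ligase complex lying 9.46 kb beyond Cd8a, fell by 0.65 in chronic against acute cells (limma adjusted p 0.00165), and it rose by 0.71 with the MEK inhibitor (limma adjusted p 0.00148). Gm44130, an annotated transcript within Rmnd5a, had -2.03 (limma adjusted p 0.0155) and 1.94 (limma adjusted p 0.0347). The call on the second value was lost without any 1 of the chronic libraries (adjusted p 0.0631, 0.0880 and 0.0572), without MEK-inhibited replicate 1 (0.0803) and without MEK-inhibited replicate 3 (0.0941). It was also lost with a pseudocount of 50, at 0.76 (0.0821), and with the replicate block (0.0593). On the far side of Cd8a, then, a neighbour moved in the directions of the pair, and on the near side no tested neighbour was called.

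The genes of the 3 CD3 chains sit together on chromosome 9: Cd3g at chr9:44969572-44980431 (minus strand), Cd3d at chr9:44981786-44987339 (plus strand) and Cd3e at chr9:44998740-45009613 (minus strand). Cd3g and Cd3d are transcribed away from each other from starts 1354 bases apart, and 11400 bases separate Cd3d from Cd3e. The CD3 epsilon chain is part of both CD3 dimers, whereas delta and gamma are each part of 1. The 3 promoters are shown because, of these linked genes, Cd3e was called in chronic against acute cells and Cd3d and Cd3g were not. In them, capitals mark matches to the letters given above (GGAAGT or CTTTGA on either strand), and RefSeq places them at chr9:45009562-45009861 (minus strand), chr9:44981536-44981835 (plus strand) and chr9:44980382-44980681 (minus strand).
Cd3e: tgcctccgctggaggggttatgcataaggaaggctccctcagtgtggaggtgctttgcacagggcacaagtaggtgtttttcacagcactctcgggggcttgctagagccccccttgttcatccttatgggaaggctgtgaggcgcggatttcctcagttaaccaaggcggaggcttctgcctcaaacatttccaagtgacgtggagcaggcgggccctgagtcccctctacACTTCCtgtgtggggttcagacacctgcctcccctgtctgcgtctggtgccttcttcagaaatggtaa
Cd3d: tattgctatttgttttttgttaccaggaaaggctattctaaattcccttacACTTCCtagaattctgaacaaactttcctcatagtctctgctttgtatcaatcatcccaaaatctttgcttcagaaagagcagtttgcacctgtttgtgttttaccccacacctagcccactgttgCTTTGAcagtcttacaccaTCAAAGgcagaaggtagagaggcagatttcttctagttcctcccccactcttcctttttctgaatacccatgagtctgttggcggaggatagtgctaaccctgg
Cd3g: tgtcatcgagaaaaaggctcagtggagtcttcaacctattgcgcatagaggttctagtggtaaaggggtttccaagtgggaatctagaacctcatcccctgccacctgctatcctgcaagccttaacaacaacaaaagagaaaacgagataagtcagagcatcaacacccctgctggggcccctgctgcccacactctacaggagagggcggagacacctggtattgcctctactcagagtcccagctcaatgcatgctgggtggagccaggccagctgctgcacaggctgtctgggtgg
The Cd3e window holds 1 ETS match, 18 bases before the start. The Cd3d window holds 1 ETS match and 2 TCF/LEF matches, and the Cd3g window holds none.

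Cd3e scaled signal was 3721, 4022 and 3578 in acute, 2581, 2645 and 2744 in chronic, and 4024, 3270 and 3124 in MEK-inhibited libraries. Chronic libraries were below all others, and the acute and MEK-inhibited ranges overlapped. It fell by 0.50 log2 units in chronic against acute cells (SE 0.10, limma adjusted p 0.00101). It rose by 0.38 with the MEK inhibitor (SE 0.10, limma adjusted p 0.0169), a call that was lost without MEK-inhibited replicate 1 (0.21, adjusted p 0.254) and without chronic replicate 2 (0.37, adjusted p 0.0516). That call was also lost with no filter on low values (adjusted p 0.348), without trend and robust moderation (0.0847) and with the mean of all Cd3e rows (0.0621). MEK-inhibited minus acute was -0.13 (limma adjusted p 0.423), and it was called lower on scales set by library totals (-0.51), as deposited (-0.47) or by totals without ribosomal RNA-like rows (-0.30). Cd3e overlaps the annotated transcripts Gm48720 on its strand and Gm48719 on the other, and whether the counting used strand is not given in the sources used here, so signal of these cannot be separated from its own.

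Cd3d and Cd3g gave values that overlapped between groups in every comparison. Cd3d was at 1265, 1254 and 1321 in acute, 1011, 1415 and 1347 in chronic and 1554, 1245 and 1439 in MEK-inhibited libraries. Cd3g was at 1459, 1474 and 1617, then 1604, 1532 and 1694, then 1570, 1413 and 1660 in the same order of groups. Their chronic minus acute values were -0.04 (SE 0.14, limma adjusted p 0.856) and 0.09 (SE 0.11, limma adjusted p 0.598). For MEK-inhibited minus chronic they were 0.18 and -0.06, with limma adjusted p of 0.467 and 0.805. Scaling decided the sign for Cd3g, which was called lower in chronic cells on scales set by library totals (-0.40, adjusted p 0.0227) or as deposited (-0.39, adjusted p 0.0275).

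Within a library, Cd3e carried 2.55, 2.73 and 2.21 times the gene-body signal of Cd3g in acute, 1.61, 1.73 and 1.62 times in chronic and 2.56, 2.31 and 1.88 times in MEK-inhibited libraries. The chronic ratios were the lowest 3 of the 9. The log2 ratio differed by -0.59 between chronic and acute and by 0.44 between MEK-inhibited and chronic libraries, both at an exact two-sided permutation p of 0.1 (0.129 adjusted), the smallest possible. Between MEK-inhibited and acute libraries the ranges overlapped (exact permutation p 0.5, 0.5 adjusted). The log2 ratio of Cd3e to Cd3d differed by -0.46 between chronic and acute libraries without overlap (exact permutation p 0.1, 0.129 adjusted). That ratio overlapped between MEK-inhibited and chronic libraries, with a difference of 0.20 (exact permutation p 0.2, 0.225 adjusted), and it was lower in MEK-inhibited than acute libraries without overlap, by a difference of -0.26 (exact permutation p 0.1, 0.129 adjusted). Of the neighbours of the cluster, Ube4a, a ubiquitin ligase gene 3.99 kb beyond Cd3g, had -0.02, -0.03 and -0.05 in the 3 comparisons and was not called. Gm30934, farther on that side, was not called either, at 0.41, 0.45 and 0.86. The last of these was called without acute replicate 2 (1.15, adjusted p 0.0162). On the side of Cd3e, Mpzl3, 45.6 kb away, moved opposite to Cd3e, at 0.83 (limma adjusted p 0.00119) and -0.88 (limma adjusted p 0.00146), and the first of these was not called on the scale of library totals (0.34, adjusted p 0.143). Jaml, a junctional adhesion molecule gene 69.6 kb away, fell by 3.07 in chronic cells (limma adjusted p 7.73e-11) and rose by 1.87 with the inhibitor (limma adjusted p 1.33e-07).

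Cd247 encodes the zeta chain, whose long tail carries most of the receptor's signalling tyrosines, and it spans 82473 bases at chr1:165788681-165871153 (plus strand). Scaled signal was 14753, 16959 and 14199 in acute, 12145, 12718 and 8486 in chronic, and 13292, 12540 and 12691 in MEK-inhibited libraries. All chronic and all MEK-inhibited values were below all acute values, and the chronic and MEK-inhibited ranges overlapped, with chronic replicate 3 standing below the other 8 libraries. That library also had the highest share of ribosomal RNA-like signal, 40.6%, whose part in the result was not tested. Cd247 fell by 0.48 in chronic against acute cells (SE 0.12, limma adjusted p 0.00636, and 0.0628 without trend and robust moderation). MEK-inhibited minus chronic was 0.23 (limma adjusted p 0.243). MEK-inhibited minus acute was -0.25 (limma adjusted p 0.162), and it passed the test when chronic replicate 3 was left out of the shared estimate of spread (-0.25, adjusted p 0.0108). It also passed on the scales of library totals (-0.63), as deposited (-0.59) and of totals without ribosomal RNA-like rows (-0.42), and in a fit of those 2 groups alone (-0.25, adjusted p 0.0180). The 9 Cd247 rows of at least 2 kb gave chronic minus acute values from -0.48 to -0.22. Cd247 overlaps Gm16565 on its strand and Pou2f1 and 4 further annotated genes on the other.

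Lck encodes the kinase that starts the cascade, and it lies at chr4:129548349-129573641 (minus strand). Its scaled signal was 9616, 11986 and 9926 in acute, 7932, 7448 and 6260 in chronic, and 8394, 8238 and 7575 in MEK-inhibited libraries. The acute values were above all others, and the chronic and MEK-inhibited ranges overlapped. Lck fell by 0.54 in chronic against acute cells (SE 0.10, limma adjusted p 0.000512), and its 5 rows of at least 2 kb ranged from -0.78 to -0.54. MEK-inhibited minus chronic was 0.17 (limma adjusted p 0.325). MEK-inhibited minus acute was -0.38 (SE 0.10, limma adjusted p 0.0122), a call lost without MEK-inhibited replicate 3 (-0.33, adjusted p 0.0689), with no filter on low values (0.0542) and without trend and robust moderation (0.0878).

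Lck has a distal promoter and a proximal one, and both are shown because the deposited pause regions gave a value at each. RefSeq places the distal window at chr4:129573592-129573891 and the proximal window at chr4:129558323-129558622, both on the minus strand. Capitals mark GGAAGT and TGTGGT.
Lck distal: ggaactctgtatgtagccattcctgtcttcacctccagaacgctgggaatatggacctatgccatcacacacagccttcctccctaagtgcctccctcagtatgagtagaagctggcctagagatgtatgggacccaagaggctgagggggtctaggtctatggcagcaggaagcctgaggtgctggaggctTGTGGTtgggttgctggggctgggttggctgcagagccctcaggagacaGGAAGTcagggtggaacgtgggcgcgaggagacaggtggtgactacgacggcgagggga
Lck proximal: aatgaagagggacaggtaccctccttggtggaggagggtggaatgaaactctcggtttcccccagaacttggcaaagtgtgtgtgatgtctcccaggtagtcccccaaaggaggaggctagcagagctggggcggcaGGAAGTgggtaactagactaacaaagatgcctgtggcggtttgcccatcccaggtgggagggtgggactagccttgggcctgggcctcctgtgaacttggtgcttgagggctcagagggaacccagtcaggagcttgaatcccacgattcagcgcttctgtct
The distal window holds 1 ETS and 1 RUNX match, and the proximal window holds 1 ETS match. Pause-region signal at the distal start was 319, 269 and 376 in acute, 241, 221 and 241 in chronic and 330, 347 and 202 in MEK-inhibited libraries. At the proximal start it was 458, 363 and 480, then 378, 307 and 250, then 287, 230 and 290. Acute and chronic ranges were separate at the distal start and overlapped at the proximal one, whereas acute and MEK-inhibited ranges overlapped at the distal start and were separate at the proximal one. The proximal region lies inside the body of the distal transcript, so its signal can include labelled RNA made from the distal start. The difference between the starts was not tested. With the mean of all 8 Lck rows in place of the distal row, the pause-region value was called lower in MEK-inhibited than acute cells (-0.60, limma adjusted p 0.0371).

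Zap70 encodes the kinase that docks on the phosphorylated CD3 and zeta tails (chr1:36761798-36782818, plus strand). Scaled signal was 3829, 4623 and 3710 in acute, 3339, 3098 and 2743 in chronic, and 3149, 3085 and 2476 in MEK-inhibited libraries. Acute values were highest, and chronic and MEK-inhibited values overlapped. Zap70 fell by 0.40 in chronic against acute cells (SE 0.12, limma adjusted p 0.0129), a call lost without acute replicate 2, its highest library (-0.30, adjusted p 0.0599), with no filter on low values (0.114) and without trend and robust moderation (0.0738). MEK-inhibited minus chronic was -0.08 (SE 0.12, limma adjusted p 0.734). Against acute cells it was lower by 0.48 with the inhibitor (limma adjusted p 0.00520, and 0.0516 without trend and robust moderation).

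Lat encodes the membrane adaptor that ZAP-70 phosphorylates (chr7:126363827-126369534, minus strand), and its fall was the second largest of the 9. Scaled signal was 3741, 4536 and 3820 in acute, 1886, 1512 and 2177 in chronic, and 2529, 1790 and 2182 in MEK-inhibited libraries. The acute libraries stood above all others by a wide margin, and the chronic and MEK-inhibited ranges overlapped. Chronic signal was 2.17 times lower than acute (log2 fold change -1.13, SE 0.14, limma adjusted p 7.86e-06). MEK-inhibited minus chronic was 0.22 (SE 0.14, limma adjusted p 0.340), and MEK-inhibited minus acute was -0.90 (SE 0.14, limma adjusted p 0.000127). Cd8a and Lat, the genes with the largest falls in chronic cells, thus had unlike values with the inhibitor, 1.58 and 0.22 against chronic.

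Per kilobase of genomic span, which allows levels of different genes to be set side by side, the order of the 9 genes differed between groups. In acute libraries Cd8a (715 ± 63.5 scaled signal per kb, SD, n = 3) and Lat (706 ± 76.8) were highest and overlapped each other. Lck (416), Cd3e (347), Cd3d (230) and Zap70 (193) followed without overlap between neighbours. Zap70 overlapped Cd247 (186), and Cd3g (140) overlapped Cd8b1 (129). In chronic libraries Lat (326), Lck (285), Cd3e (244), Cd3d (226), Cd8a (171), Cd3g (148), Zap70 (146) and Cd247 (135) each overlapped the next, and Cd8b1 (84.5) was below Cd247 without overlap. In MEK-inhibited libraries Cd8a (507) was again first and did not overlap Lat (380), and Lat, Cd3e (319) and Lck (319) overlapped in turn. Cd3d (254) stood apart from Lck above it and Cd247 (156) below it, and Cd247, Cd3g (142), Cd8b1 (140) and Zap70 (138) overlapped in turn. By span, Cd8a was thus at the top of the order together with Lat in acute cells. It was in the middle of the order in chronic cells and first with the inhibitor. These levels rest on the span as length. Introns make up most of it for 8 of these genes, but not for Cd8a, with 3128 exon bases in a span of 5743. With summed exon length the order is another, and the mean of Cd8a over the 9 libraries (852) was above only that of Cd3d (814).

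Over the pause region, signal was lower and the spread wider. Cd8a was the 1 gene of the 9 called, lower in chronic than acute cells and higher in MEK-inhibited than chronic cells. Of 7678 genes tested over the pause region, 5.35% were called lower, 5.37% higher and 10.7% in either direction for chronic minus acute. For MEK-inhibited minus chronic, 1.56% were called higher, 1.43% lower and 3% in either direction. For MEK-inhibited minus acute, where 0 of the 9 genes were called by limma and 0 reached an unadjusted p under 0.05, 5.95% were called, 3.44% higher and 2.51% lower. Pause-region signal of Cd8a was 512, 447 and 789 in acute, 170, 173 and 108 in chronic and 427, 457 and 329 in MEK-inhibited libraries, with chronic apart from both other groups and those 2 overlapping. Its log2 fold change was -1.91 (SE 0.25, limma adjusted p 2.44e-06) for chronic minus acute and 1.41 (SE 0.25, limma adjusted p 0.000526) for MEK-inhibited minus chronic. The second call was lost without trend and robust moderation (adjusted p 0.0565). Lat was next, at -0.83 for chronic minus acute (SE 0.28, limma adjusted p 0.0590). It passed without acute replicate 3 (-1.03, adjusted p 0.0265) and without chronic replicate 1 (-1.09, adjusted p 0.0213). The median of the 9 pause-region values was -0.44, 0.25 and -0.25 in the 3 comparisons. Groups did not overlap for 4, 2 and 1 of the 9 genes, and for 24.3%, 20.2% and 24.7% of all genes tested.

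Pausing, taken as log2 pause-region signal minus log2 gene-body signal in each library, was called by limma for 0 of the 9 genes in each comparison, and 0 had an unadjusted p under 0.05. Over 7413 genes, 0 percent were called in either direction, with 749 at an unadjusted p under 0.05 for chronic minus acute. For Cd8a the mean was -2.85 ± 0.43 in acute, -2.68 ± 0.63 in chronic and -2.84 ± 0.36 in MEK-inhibited libraries (SD, n = 3). Its chronic minus acute difference was 0.17 with SE 0.37, too wide to tell whether start and body differed in the same proportion. For Lat the mean was -3.67 ± 0.29, -3.37 ± 0.43 and -3.34 ± 0.31. Groups did not overlap in pausing for 1, 0 and 1 of the 9 genes, and for 13.8%, 11.6% and 15% of all genes tested.

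The chains and proteins that work with these 9 were followed in 4 lists. Their counts stand beside the shares of all tested genes given above: 18% higher and 15.9% lower for chronic minus acute, 9.93% and 7.65% for MEK-inhibited minus chronic, and 14.4% and 11.5% for MEK-inhibited minus acute. On the scale of library totals, calls in either direction were 49.8%, 15.7% and 37.1% of all tested genes in these comparisons. Constant segments of the receptor chains, 7 genes, had 6 called lower in chronic than acute cells and none higher, with a median of -0.74. With the inhibitor, 4 were called higher than in chronic cells and none lower, with a median of 0.87. Those 4 were the gamma and delta segments Trdc, Tcrg-C1, Tcrg-C2 and Tcrg-C4. The alpha and beta segments Trac, Trbc1 and Trbc2 were not called with the inhibitor, at 0.12, 0.10 and 0.21 (limma adjusted p 0.643, 0.758 and 0.317). For chronic minus acute they were at -0.43, -0.40 and -0.36, and Trbc1 was not called (limma adjusted p 0.0661). The number called lower was 1 to 3 when acute replicate 1, 2 or 3, chronic replicate 1 or 2, or MEK-inhibited replicate 1 or 3 was left out, and the number called higher was 2 without chronic replicate 1, chronic replicate 3 or MEK-inhibited replicate 3. Tcrg-C4, a constant segment of gamma chains, fell by 1.62 (limma adjusted p 5.23e-06) and rose by 2.21 (limma adjusted p 2.84e-07), and Tcrg-C2 rose by 1.55 with the inhibitor (limma adjusted p 0.000695). Trac, the alpha-chain constant segment, had -0.43 for chronic minus acute (limma adjusted p 0.0247), which was not called without acute replicate 2 (0.0878), acute replicate 3 (0.0961), chronic replicate 1 (0.0895) or chronic replicate 2 (0.0510). Against acute cells, MEK-inhibited cells had 1 of the 7 called higher and none lower, with a median of 0.13. It was Tcrg-C4, at 0.59 (limma adjusted p 0.0406), which was not called without any 1 of the acute or MEK-inhibited libraries (adjusted p 0.0688 to 0.166). These segments include near-identical copies, between which the authors' counting may have divided signal, so values of single segments are uncertain.

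Of the LAT signalosome and its adaptors, 23 of 24 genes were tested (Was was not), and 15 fell and 3 rose in chronic against acute cells, with a median of -0.65. Txk, a TEC-family kinase, fell by 2.49 (limma adjusted p 1.65e-08) and Lax1, a LAT-like membrane adaptor that restrains signalling, fell by 1.96 (limma adjusted p 3.05e-09). Lcp2, which encodes SLP-76, the scaffold that pairs with LAT, rose by 0.46 (limma adjusted p 0.000203), and Sos1, a RAS exchange factor recruited through GRB2, rose by 0.62 (limma adjusted p 3.25e-05). On the scale of library totals those 2 were at -0.033 and 0.13 and were not called, and the list had 18 lower and 0 higher. The last of the 3 that rose was the TEC-family kinase gene Tec, at 0.27 (limma adjusted p 0.0445), a call lost without any 1 of the 9 libraries but chronic replicate 3 (adjusted p 0.0511 to 0.158). With the inhibitor, 8 of the 23 rose and 4 fell against chronic, with a median of 0.19. Rasgrp1, the RAS exchange factor activated by diacylglycerol, rose by 0.74 (limma adjusted p 9.91e-07) and Lax1 rose by 0.96 (limma adjusted p 4.97e-05), while Lcp2 fell by 1.46 (limma adjusted p 5.64e-10). Skap1 and Sos1 also fell, and Skap1 was not called without chronic replicate 1 (adjusted p 0.0673), chronic replicate 2 (0.0850) or MEK-inhibited replicate 3 (0.0711). On the scale of library totals 9 of the 23 were higher and 1 was lower, with Skap1 (adjusted p 0.145) and Sos1 (0.263) not called. Against acute cells, 15 of the 23 were lower and 1 was higher with the inhibitor, with a median of -0.44. The higher one was Sos1, at 0.27 (limma adjusted p 0.0344), which was not called without any 1 of the acute or MEK-inhibited libraries (adjusted p 0.0753 to 0.260). The lower ones included Txk at -2.28 (limma adjusted p 9.95e-08) and Themis, a regulator of receptor signalling in thymocytes, at -1.03 (limma adjusted p 1.75e-06).

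Regulators of the proximal kinases, 21 genes, were divided, with 5 higher and 7 lower in chronic than acute cells and a median of -0.09. Fyn, the other SRC-family kinase of the receptor, fell by 1.52 (limma adjusted p 3.05e-09). The adaptors Dok2 and Sla, which dampen receptor signalling, rose by 1.12 (limma adjusted p 4.12e-07) and 1.00 (limma adjusted p 2.37e-07). The Dok2 value was 0.76 and not called (adjusted p 0.0672) with its row of longest span. Cblb, Dusp22 and Rnf19b were the others that rose, and Rnf19b was not called without acute replicate 1 (adjusted p 0.0758), acute replicate 3 (0.0532) or chronic replicate 2 (0.0693). On the scale of library totals this list had 3 higher and 13 lower. With the inhibitor, 4 rose and 4 fell against chronic, with a median of -0.13. Cblb, a ubiquitin ligase that restrains receptor signalling, fell by 0.74 (limma adjusted p 4.38e-06) and Ubash3b, a phosphatase that acts on ZAP-70, fell by 0.68 (limma adjusted p 0.00501). Sla2, an adaptor related to Sla, rose by 0.87 (limma adjusted p 2.85e-05) and the receptor phosphatase gene Ptprj by 0.80 (limma adjusted p 2.85e-06). Fyn and Cbl were the others that rose and Dok2 and Sla the others that fell. Of these, Fyn was not called without MEK-inhibited replicate 1 (adjusted p 0.180) or 3 (0.0518), Cbl without replicate 1 (0.0889), Dok2 without replicate 2 (0.0529) and Sla without replicate 3 (0.0563) of the MEK-inhibited group. On the scales of library totals and as deposited, Dok2 (adjusted p 0.0916 and 0.116) and Sla (0.207 and 0.239) were not called, and 5 of the list were higher and 2 lower. Against acute cells, 5 were higher (Sla2, Dok2, Sla, Dusp22 and Ptprj) and 8 lower with the inhibitor. On the scale of library totals 0 of the 21 were higher and 11 lower, with Sla2 at 0.34 (adjusted p 0.053), Dok2 at 0.29 (0.0977), Sla at 0.23 (0.206), Dusp22 at 0.23 (0.327) and Ptprj at -0.14. Dok2 was at -0.25 with its row of longest span. Ptprj, at 0.25 (limma adjusted p 0.0479), was not called without any 1 library other than chronic replicates 1 and 3 (adjusted p 0.0570 to 0.274), and Dusp22 was not called without acute replicate 2 (0.0528). Fyn was at -1.15 there (limma adjusted p 2.33e-07) and Sla2 was higher by 0.72 (limma adjusted p 0.000147).

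Accessory surface receptors, 12 genes, had 1 higher and 7 lower in chronic than acute cells, with a median of -0.41. Ly9, a SLAM-family receptor, fell by 1.37 (limma adjusted p 1.88e-06), Cd2 fell by 0.38 (limma adjusted p 0.00813) and Cd28, the costimulatory receptor, rose by 0.63 (limma adjusted p 0.000407). The Cd28 value was 0.14 on the scale of library totals and was not called (adjusted p 0.434). With the inhibitor, 3 rose and 4 fell against chronic, with a median of -0.07. Cd28 fell by 1.34 (limma adjusted p 1.60e-07), while Thy1 rose by 0.82 (limma adjusted p 2.01e-05) and Cd96 by 0.64 (limma adjusted p 0.000134). Ly9 was the other that rose, and Cd4, Cd5 and Cd226 the others that fell. Ly9 was not called without acute replicate 1, chronic replicate 2 or 3, or MEK-inhibited replicate 1 or 3 (adjusted p 0.0529 to 0.0966), nor Cd4 without chronic replicate 1 or 2 or MEK-inhibited replicate 2 or 3 (0.0951 to 0.206). On the scale of library totals Cd4 was not called either (0.0989). Against acute cells, 8 were lower and none higher, with a median of -0.49, including Slamf1 at -1.02 (limma adjusted p 2.65e-06).

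**Figure D4:**
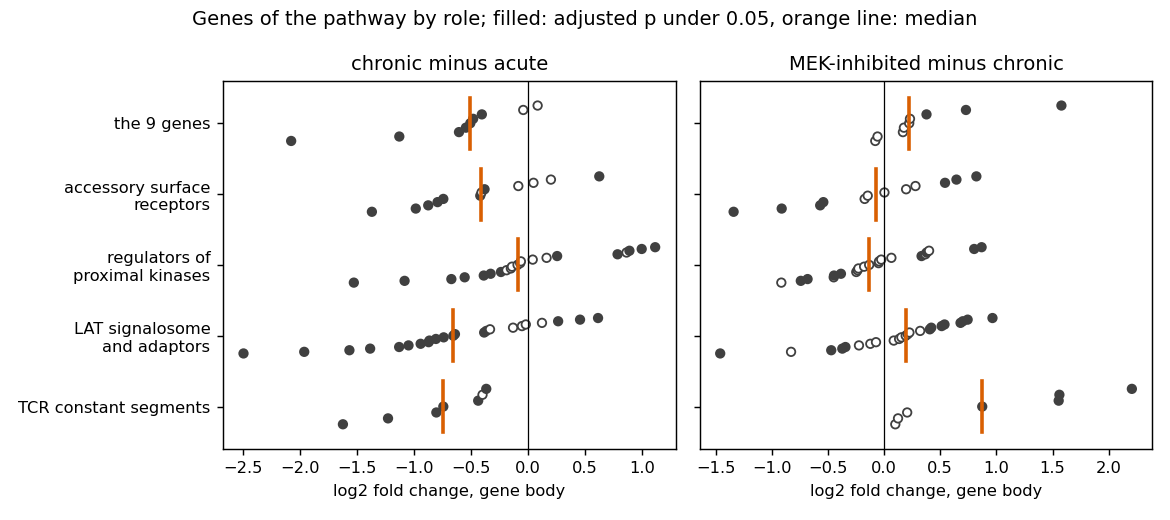
Log2 fold change of gene-body signal (horizontal axes) for each tested gene of the 4 lists and of the 9 genes, for chronic minus acute (left) and MEK-inhibited minus chronic (right); filled points passed the limma test and orange lines are medians. Left, the medians of the 9 genes and of the LAT list are at -0.50 and -0.65 and that of the regulators is at -0.09; right, they are at 0.22, 0.19 and -0.13.

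Markers of the labelled cell type were present in every library. The summed scaled signal of Cd8a and Cd8b1 was 5618 to 6500 in acute, 2116 to 2319 in chronic and 4508 to 5434 in MEK-inhibited libraries. That of Cd3e, Cd3d, Cd3g, Trac and Trbc2 was 11566 to 12013, 8482 to 10313 and 10126 to 11430. Markers of CD4 T cells gave 2 of 3 genes tested (Foxp3 had no row), with a sum of 1052 to 1382 in acute, 1066 to 1399 in chronic and 1749 to 2039 in MEK-inhibited libraries. Within it, Cd4 itself was at 388 to 501, 145 to 348 and 102 to 143, lowest with the inhibitor, and Zbtb7b, the transcription factor gene of the CD4 lineage, was at 664 to 931, 921 to 1068 and 1606 to 1933. B cell markers (2 of 5 tested) summed to 540 to 571, 192 to 222 and 162 to 439, being highest in acute libraries, and gamma-delta T cell markers (3 of 3) to 444 to 649, 248 to 448 and 577 to 636. NK cell markers (1 of 3 tested, Eomes, which CD8 T cells also transcribe) summed to 1278 to 1450, 982 to 1855 and 1586 to 1712, with Ncr1 at 0 to 6.47. Macrophage markers (2 of 5 tested) were at 162 to 229, 114 to 173 and 91.5 to 221, with Lyz2 at 0 to 8.58, dendritic cell markers (2 of 3) at 207 to 270, 246 to 318 and 158 to 233, and stromal and epithelial markers (1 of 4) at 66.6 to 80.2, 52.4 to 107 and 103 to 120. Erythroid markers (0 of 3 tested) were at 0 to 25.9, 2.27 to 17.1 and 6.32 to 30.0. No marker gene was at 0 in all libraries. The B cell sum was higher in all acute libraries than in all others, as were Cd8a, Cd247, Lck, Zap70 and Lat, and its part in those results was not tested.

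The genes whose log2 gene-body signal followed each of the 9 most closely over the 9 libraries were ranked by Pearson r, as a description. Since the 3 groups form clusters and all values share the same scaling, such an r mostly reflects the group means. For Cd8a they were Parp14 (0.993), H2-Q6 (0.992) and Ighm (0.991), and for Cd8b1 they were Setd7 (0.986), Usp50 (0.981) and Git2 (0.971). Among the closest to Cd3e were Plac8 (0.967) and Sun2 (0.963). Lck was closest to Anks1 (0.983), Gga3 (0.983) and Slc44a2 (0.980), and Lat to Rasal3 (0.985), Polr1e (0.979) and Me2 (0.977). Cd247 was closest to Ppp3cc (0.975), Zfp236 (0.973) and Rbm6 (0.967), and Zap70 to Prm2 (0.969), Stk10 (0.959) and Cd2 (0.956). The highest values were lower for Cd3g, with Tbrg1 (0.927), Hyal2 (0.919) and Cops3 (0.886), and for Cd3d, with AC154912.3 (0.870) and Tomm40l (0.869) among them.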

How the data were processed

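Nascent RNA from 9 libraries (3 per group) was sequenced as paired reads of 100 bases, per the labels' protocols. The submitters' processing notes name FastQC 0.12.0, Trim Galore 0.6.10, STAR 2.7.0a, SAMtools 1.19.2, deepTools 0.1.9, R 4.1.2 and the build mm10. The deposited tables hold a normalised signal per transcript over gene body and pause region. In each library these values are multiples of 1 step (0.764 to 1.06), and the region limits, the strand setting and the basis of the authors' scaling are not given in the sources used here. Of 118482 rows, 117346 were matched to GENCODE M21 names with their version, 383 without it and 753 not at all.

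Groups follow the sample titles. Signal was rescaled by a trimmed mean (30% of ratios and 5% of levels trimmed at each end). Genes reaching a signal of 50 in 3 or more libraries were tested with limma 3.58.1 (R 4.3.3) on log2(signal + 5), in 1 model over all 9 libraries, with intensity trend and robust moderation, Benjamini-Hochberg adjustment over all tested genes and a threshold of 0.05. All 9 genes passed the filter in both tables. Fold changes are on that log2 scale. The scripts were tested on simulated data. Ratios within libraries used exact permutation tests (scipy 1.17.1). Promoter sequences are from RefSeq (GRCm38.p6).

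The 9 genes and the lists were chosen with earlier results of these data known. Further genes were named by rule: in each list and comparison, up to 2 called genes with the highest and 2 with the lowest fold change, of which the text gives examples (with every gene, named after its value was seen, where no more than 5 were called in 1 direction), the 2 nearest tested genes on each side of the Cd3 and Cd8 genes, and the 3 genes most like each of the 9 by Pearson r. A few genes that the rule names are not reported here. The alternatives were 4 scalings, pseudocounts of 0.5 and 50, no filter and a filter at 200, a replicate block, the 2 compared groups alone, plain limma moderation, other choices of transcript row, and leaving out each library.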

Additional observations from a re-analysis of the deposited data

How the results depend on the processing

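Depth in reads is unknown, and 3 libraries a group limit the precision. In the gene body, the members called moved by no more than 1.5 times from 7, 3 and 4 with 1 exception. For MEK-inhibited minus acute without trend and robust moderation, 1 was called, where 3356 of all 15942 genes tested were called. Over the pause region for chronic minus acute, 8 members were called with library totals (where 22.4% of all genes tested were called) and 2 with a pseudocount of 50, a filter at 200 or the replicate block, and 1 to 2 with any 1 library left out. For MEK-inhibited minus acute 1 was called with the mean of all rows, and for MEK-inhibited minus chronic 0 without trend and robust moderation. Apart from library totals, shares of all genes called over the pause region under these settings are not reported here.

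Replicate numbers gave no clear pairing of the libraries, although 3 libraries a group cannot exclude one. Deviations of same-numbered libraries correlated at 0.07 to 0.10 for chronic and acute, -0.15 to 0.09 for MEK-inhibited and chronic and -0.53 to -0.01 for MEK-inhibited and acute, and 2 of 9 libraries correlated best with their own number. With the replicate block, 5498, 2956 and 4263 genes were called over the gene body, against 5404, 2802 and 4117 without it. The constant segments called for MEK-inhibited minus acute then numbered 0.

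Accessory receptors for chronic minus acute numbered 5 with no filter, and regulators for MEK-inhibited minus chronic also 5. With no filter, 4053 of all 34470 genes tested were called for chronic minus acute and 1636 for MEK-inhibited minus chronic. Constant segments for chronic minus acute numbered 1 with no filter or without trend and robust moderation, 2 in the fit of the compared groups, and 1 to 6 with 1 library left out. Without trend and robust moderation, 4729 of all 15942 genes tested were called for chronic minus acute. In the fit of the compared groups 5043 of 15118 were called, and with 1 library left out 4411 to 5386 of 15306 to 15858. For MEK-inhibited minus acute, constant segments numbered 3 with library totals, the deposited scale or totals without ribosomal RNA-like rows. All 3 were lower, with Tcrg-C4 at 0.21, 0.25 and 0.42 no longer called. On these scales 37.1%, 34.9% and 29.6% of all tested genes were called. The segments numbered 2 with a pseudocount of 50 (4159 of 15942 genes called) or the compared groups (4516 of 15573). They numbered 0 with no filter (2642 of 34470), and 0 to 2 with 1 library left out (3219 to 4553 genes called). For MEK-inhibited minus chronic, constant segments numbered 2 with no filter and 2 to 4 with 1 library left out (2128 to 3040 of all genes called).

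With library totals and the deposited scale, chronic minus acute turned to -0.40 and -0.39 for Cd3g, to -0.033 and -0.016 for Lcp2, to -0.22 and -0.21 for Tec and to -0.23 and -0.22 for Rnf19b. MEK-inhibited minus acute turned to -0.11 and -0.072 for Sos1, from 0.27, and to -0.14 and -0.094 for Ptprj, from 0.25. The median over all tested genes was -0.50 for chronic minus acute and -0.37 for MEK-inhibited minus acute with library totals. On the deposited scale these medians were -0.48 and -0.33. Which scale is nearer to RNA per cell was not tested. Dok2 for MEK-inhibited minus acute was -0.25 with its longest row, from 0.67; the cause was not tested. Per kilobase of summed exon, the mean over the 9 libraries was 4824 for Cd247, 4073 for Lck, 2258 for Cd3e, 2175 for Lat, 1523 for Cd3g, 1487 for Zap70, 1169 for Cd8b1, 852 for Cd8a and 814 for Cd3d, since exon length divides signal that also covers introns.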
